A study of Arabidopsis thaliana with 6 samples.

Results

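The transcripts described here are encoded on the chloroplast and mitochondrial genomes of Arabidopsis and were measured in wild type (WT) seedlings and in seedlings that express human p53. Members were all probe sets whose annotation on the array names 1 gene of either organelle genome, and 92 of the 22746 probe sets without controls met this rule. They comprise 69 chloroplast probe sets for 69 genes and 23 mitochondrial probe sets for 16 genes, since 7 of the latter belong to nad1 and 2 to nad5. In the reference the chloroplast genome has 78 protein-coding gene symbols and the mitochondrial genome 32, and several of the genes that are no members share a probe set with another gene or a second copy.

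Both groups were seedlings of the ecotype Col-0, 10 days old, grown in long days. The WT group carried no transgene, and the p53 group carried 35S:P53, the coding sequence of human p53 behind the constitutive 35S promoter of a plant virus. Each group had 3 arrays (GeneChip Arabidopsis ATH1), numbered 1 to 3, which the labels assign to separate biological experiments. The sources used here do not name the transgenic line or lines that were hybridized, and the level of p53 itself was not analysed here. The deposited values are logs, taken as log2, and each probe set is centred on its median of the 6 arrays. They give differences between arrays and no levels, so genes cannot be ranked by abundance and the labelled tissue could not be checked by the level of its markers. A difference between whole seedlings cannot tell fewer organelles or fewer green cells apart from less RNA in each.

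The chloroplast genome encodes the core subunits of the photosystems, the cytochrome b6f complex, the ATP synthase, an NADH dehydrogenase-like complex and the large subunit of Rubisco, together with part of its own ribosome and an RNA polymerase of bacterial type. Most of these genes lie in clusters that are transcribed together and then cut and spliced, so neighbouring genes often share a primary transcript. The mitochondrial genome of plants holds a smaller set for respiration and for the maturation of cytochrome c. The remaining subunits of all these complexes come from the nucleus.

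Chloroplast transcripts varied together from array to array within each genotype. Their median value was -0.11, 0.18 and -0.06 in WT replicates 1 to 3, and 0.02, 0.22 and -0.19 in the p53 replicates. WT replicate 2 was the highest WT array for 58 of 69 chloroplast probe sets (84.1%, against 35.4% of all probe sets tested), and p53 replicate 2 was the highest p53 array for 56 (81.2%, against 35.3%). Replicate 2 was highest in both genotypes for 53 of the 69 (76.8%, against 16.5% of all probe sets), so the arrays numbered 2 shared this pattern. The lowest WT array was replicate 1 for 39 of the 69 and replicate 3 for 29. Over all 22746 probe sets these counts were 7289 and 7467.

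In p53 replicate 3 the transcripts of the organelle genomes lay apart in opposite directions. This array was the lowest p53 array for 53 of 69 chloroplast probe sets (76.8%, against 36.2% of all probe sets) and for none of the 23 mitochondrial ones, whereas it was the highest p53 array for 17 of the 23 (73.9%, against 43.2%). The mitochondrial medians were -0.01, 0.02 and 0.02 in WT and -0.11, -0.07 and 0.05 in p53. On p53 replicate 3 the mean of the GAPDH control probe sets was 0.31, against -0.30 on p53 replicate 2, and the probe set for cytosolic 25S ribosomal RNA stood at 0.69 on WT replicate 3, with the other arrays between -0.11 and 0.08. The control probe sets at the 3' end minus those at the 5' end, a sign of RNA quality, differed by genotype without overlap for GAPDH (-0.06, 0.14 and 0.12 in WT, and -0.21, -0.24 and -0.08 in p53) and for actin (0.21, 0.11 and 0.06, and -0.04, -0.06 and -0.06), and overlapped for ubiquitin (0.03, 0.17 and -0.03, and 0.05, 0.11 and 0.0078). These control values are centred as well, so they compare arrays and are not the usual ratio of 3' to 5' signal. The quality summary of the paper lists every array as outside bounds in its threshold test. Over all probe sets the array medians lay between -0.02 and 0.01. The part of these array and genotype differences in the results was not tested, and the results are therefore given with and without p53 replicate 3.

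**Figure D1:**
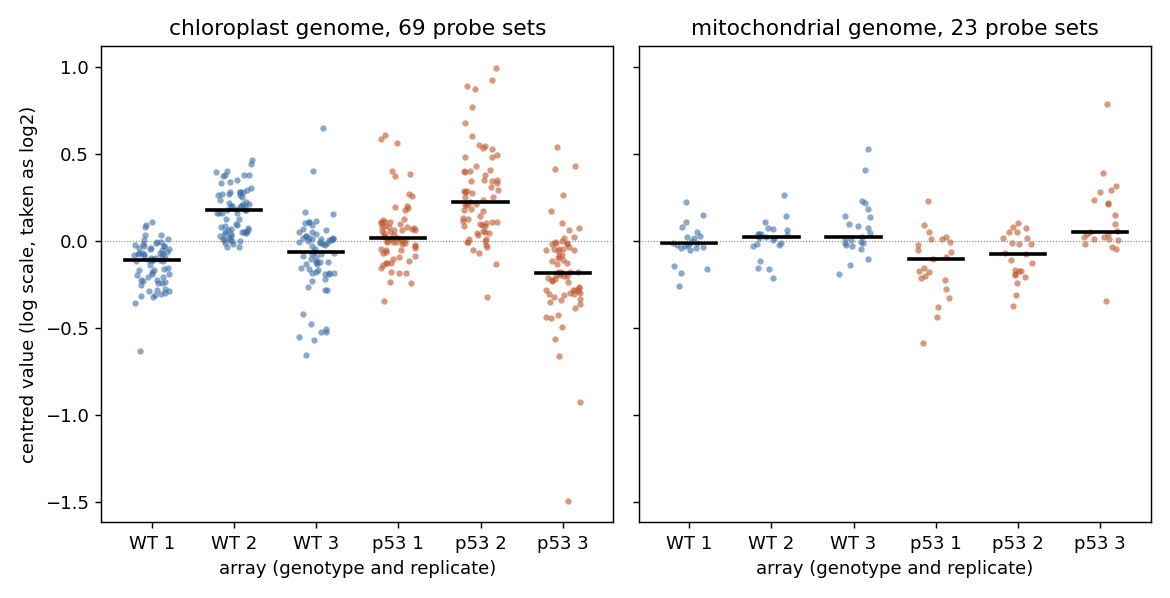
Centred values (log scale, taken as log2) of the 69 chloroplast and 23 mitochondrial probe sets on each array, with points for probe sets and a bar for their median. The chloroplast medians run from -0.19 in p53 replicate 3 to 0.22 in p53 replicate 2, a wider span than the mitochondrial medians, and overlap between the genotypes.

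With all arrays in the comparison, 1 of the 92 members passed. The chloroplast gene psbA was lower in p53-transgenic seedlings (limma, adjusted p under 0.05 over all probe sets), and no chloroplast probe set was higher and no mitochondrial one passed in either direction. Of all probe sets tested, 15.4% passed, with 6.55% higher and 8.84% lower in p53. At an unadjusted p under 0.05, 4 of 69 chloroplast (5.80%) and 3 of 23 mitochondrial probe sets (13.0%) were counted, against 29.2% of the array. The WT and p53 arrays did not overlap for 6 chloroplast probe sets (1 above and 5 below WT) and 3 mitochondrial ones (1 above and 2 below), against 34.3% of all probe sets (14.8% above and 19.4% below). The shares of organelle members lay below those of the array, a difference for which no test was made.

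The median p53 minus WT difference was 0.03 over the chloroplast probe sets and -0.04 over the mitochondrial ones, beside -0.01 over all probe sets. Without p53 replicate 3 these medians were 0.13, -0.10 and -0.03. The chloroplast median changed sign without WT replicate 1 (-0.04) and without p53 replicate 2 (-0.08), and the mitochondrial one without p53 replicate 1 (0.01). No member differed over 2-fold and 3 differed over 1.5-fold (psaA, rpl14 and rpl22), while 13.6% of all probe sets differed over 1.5-fold and 6.03% over 2-fold. A difference that missed the threshold is not shown to be 0. The 95% confidence interval lay within 1.5-fold in both directions for 46 of 69 chloroplast probe sets (66.7%) and 20 of 23 mitochondrial ones (87.0%), against 66.0% of the array, and within 2-fold for 61 and 23 of them.

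Spread between replicates was wide for the chloroplast members. The median SD within a genotype (n = 3) was 0.19 in WT and 0.26 in p53 for chloroplast probe sets, 0.12 and 0.18 for mitochondrial ones, and 0.11 and 0.15 for all probe sets. For 65 of the 69 chloroplast and 21 of the 23 mitochondrial probe sets the difference between the genotypes was smaller than the range among the p53 arrays, against 68.5% of all probe sets.

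**Figure D2:**
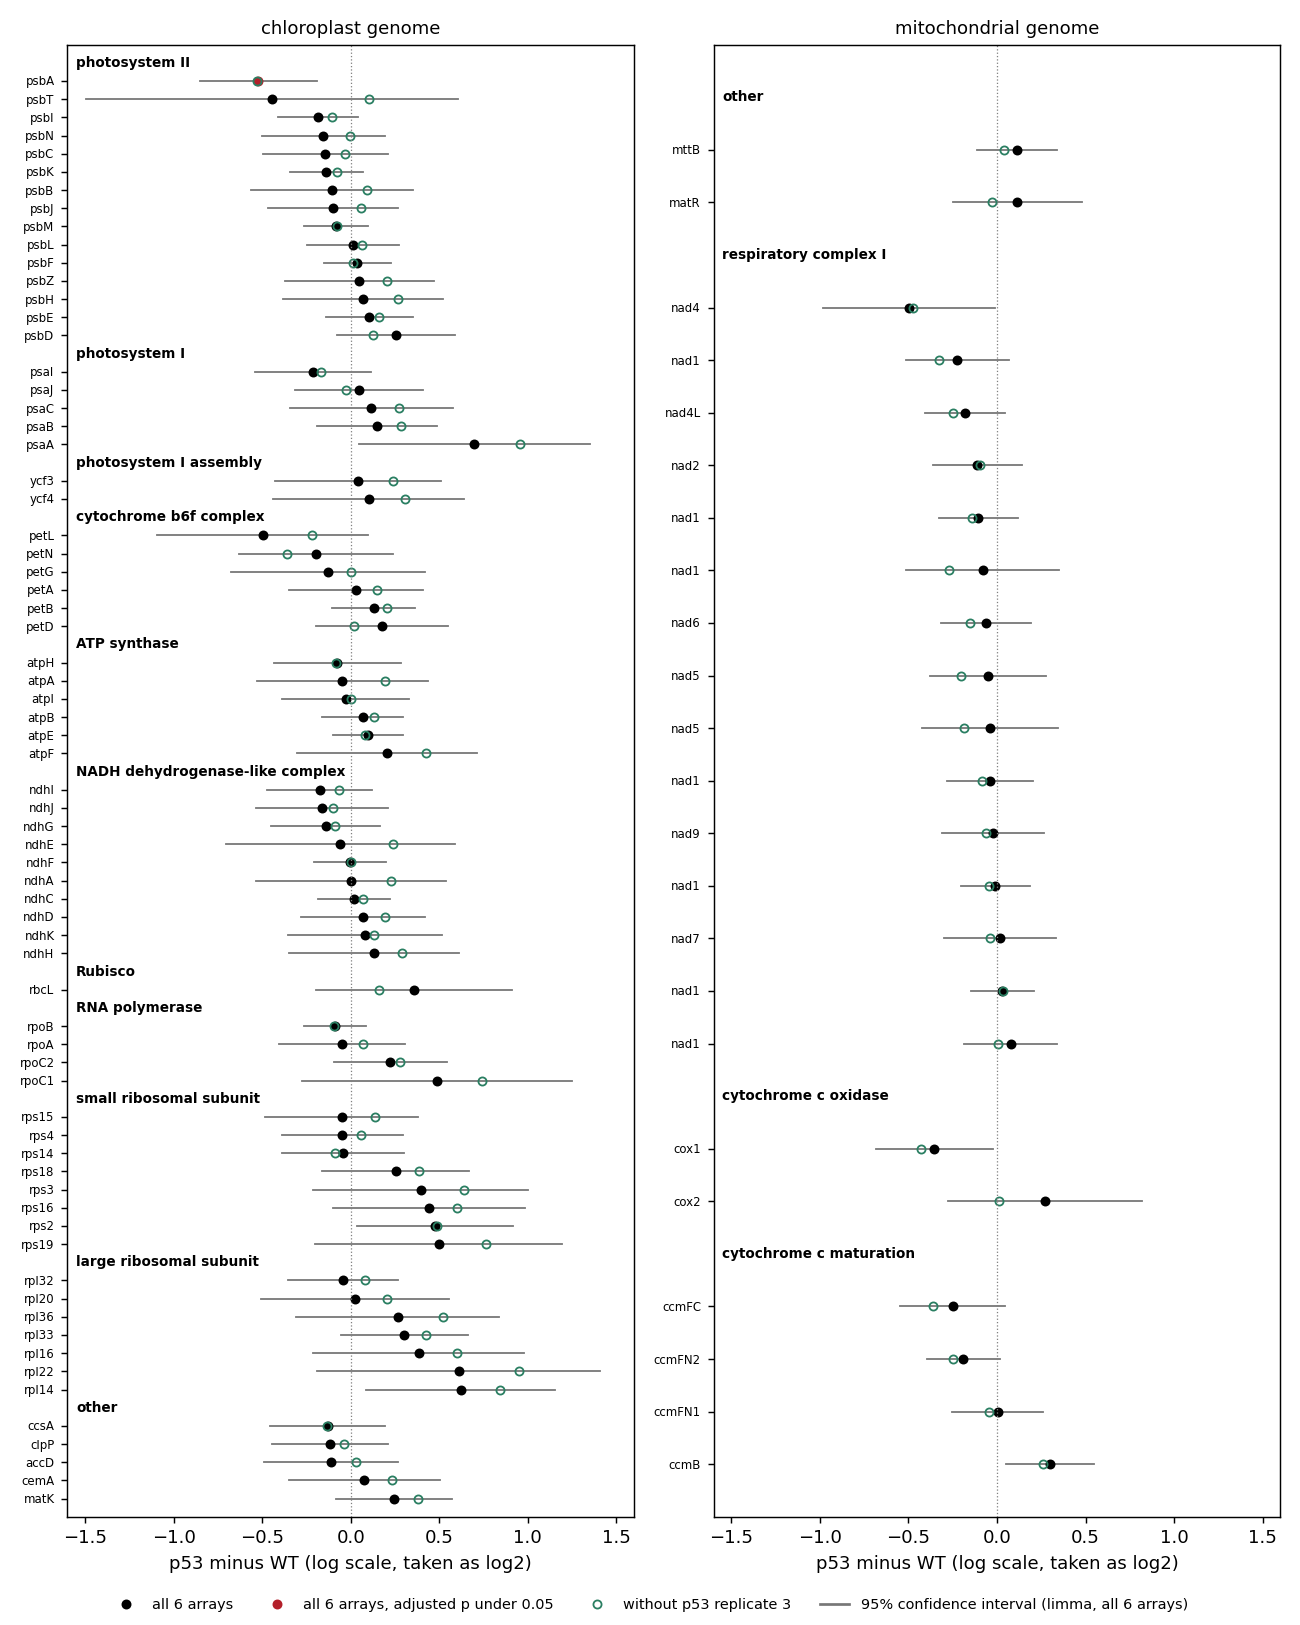
Difference between p53 and WT for each organelle probe set (log scale, taken as log2), grouped by complex, with the 95% confidence interval from limma as a line and the difference without p53 replicate 3 as an open circle. The red point is psbA at -0.52, the 1 member with an adjusted p under 0.05, and the ribosomal genes lie mostly to the right of 0.

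psbA encodes the D1 protein of the photosystem II reaction centre, which is damaged by light and continually made anew. Its values were 0.11, 0.44 and 0.64 in WT and -0.13, -0.14 and -0.11 in p53. Every p53 array lay below every WT array, and the p53 arrays were nearly equal while the WT arrays spread widely. The mean was 0.40 ± 0.27 (SD, n = 3) in WT and -0.12 ± 0.01 (SD, n = 3) in p53, a difference of -0.52 (standard error 0.14, 95% confidence interval -0.85 to -0.19), or 1.43-fold lower in p53.

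The limma adjusted p of psbA was 0.0489, close to the threshold. It was 0.0720 without p53 replicate 3, where the difference was -0.53. The call was also lost without WT replicate 2 (0.138), WT replicate 3 (0.137), p53 replicate 1 (0.146) or p53 replicate 2 (0.0760), and it held without WT replicate 1 (0.0237) and with the replicate number as a block (0.0484). psbA also missed the threshold with each array centred on its own median (0.0526) and with the methods' t-test (0.148). With array weights, which count variable arrays less, it missed too (0.0722), and rpl14 was the 1 organelle member called (adjusted p = 0.0392, higher), where 19.7% of all probe sets were called, 8.74% higher and 11.0% lower. The difference of psbA stayed between -0.66 and -0.40 whichever array was left out.

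The other 14 photosystem II genes did not pass. The median difference over all 15 was -0.10, and 0.06 without p53 replicate 3. psbD, for the D2 protein that pairs with D1, had the highest difference of the complex at 0.26 (adjusted p = 0.289), with values of -0.14, 0.05 and -0.18 in WT and -0.05, 0.12 and 0.43 in p53, which overlap. psbI, psbK and psbM, small subunits named here after their values were seen, had p53 arrays all below the WT arrays, with differences of -0.18, -0.14 and -0.08 and adjusted p from 0.258 to 0.541. The lowest value of any member was that of psbT, also named after its values were seen, at -1.49 in p53 replicate 3, against 0.0045 and 0.29 in the other p53 arrays. The difference of psbT was -0.44 with that array and 0.10 without it.

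psaA had the largest difference of all members. It encodes a core subunit of photosystem I that binds the reaction centre chlorophylls together with the product of psaB. The psaA values were 0.04, -0.04 and -0.66 in WT and 0.61, 0.87 and -0.04 in p53. In 2 of 3 p53 arrays it was above every WT array, and p53 replicate 3 lay within the WT range. The difference was 0.70 (standard error 0.27, adjusted p = 0.147), or 1.62-fold higher in p53, and it passed with the replicate block (0.0138) and without p53 replicate 3 (difference 0.96, adjusted p = 0.0316).

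The genes next to psaA did not show a difference of this size. psaB had a difference of 0.15 (adjusted p = 0.568) and rps14, which follows psaB on the same primary transcript, -0.04 (adjusted p = 0.891). The difference between these genes was not tested. psaI had the lowest value of the complex at -0.21 (adjusted p = 0.383), and the assembly factors ycf3 and ycf4 had 0.04 and 0.10 (adjusted p = 0.926 and 0.833).

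rbcL, which encodes the large subunit of the carbon-fixing enzyme Rubisco, had values of -0.63, -0.03 and 0.05 in WT and -0.12, 0.03 and 0.54 in p53. The groups overlap, with WT replicate 1 low and p53 replicate 3 high, the reverse of most chloroplast transcripts on the latter array. Its difference was 0.36 (standard error 0.23, adjusted p = 0.383), and 0.16 without p53 replicate 3.

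In the remaining photosynthetic complexes differences were small beside the spread. The cytochrome b6f complex, which links the photosystems, had a median of -0.05 over 6 genes. It ranged from petL, a small subunit, at -0.50 (adjusted p = 0.249) to petD, for subunit IV, at 0.18 (adjusted p = 0.536). The petL values were -0.04, 0.37 and 0.05 in WT and -0.24, 0.04 and -0.93 in p53. Both p53 replicates 1 and 3 lay below all WT arrays, replicate 3 by the wider margin. Without p53 replicate 3 the difference of petL was -0.22.

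The 6 ATP synthase genes had a median of 0.02, from -0.08 for atpH, the membrane ring subunit, to 0.21 for atpF, a stalk subunit (adjusted p = 0.810 and 0.605). Over the 10 genes of the NADH dehydrogenase-like complex, which feeds electrons back into the photosynthetic chain, 5 lay above and 5 below 0, from -0.18 for ndhI to 0.13 for ndhH (adjusted p = 0.426 and 0.739). The complex medians on p53 replicate 3 were -0.08 for ATP synthase and -0.19 for the NADH dehydrogenase-like complex, against 0.13 and 0.20 on p53 replicate 2. Without p53 replicate 3 the complex medians of the difference were 0.11 and 0.10.

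Genes of the chloroplast's own gene expression had a higher median difference than those of photosynthesis, which was not tested. It was 0.27 over 19 genes for ribosomal proteins and RNA polymerase, with 13 above 0, and 0.0014 over 43 genes of the photosynthetic complexes, with 22 above 0, beside -0.01 for all probe sets. The 19 leave out chloroplast ribosomal protein genes on probe sets that name several genes. Of these, rps12 (-0.34, limma adjusted p = 0.0483, and -0.11), rps7 (-0.14) and rpl2 (-0.01) lay below 0, and rpl23 (0.09) above. None of the 19 passed in the comparison of all arrays. With the replicate number as a block 6 of the 19 passed, all higher in p53 (rps2, rpoC1, rpl14, rpl16, rpl22 and rps19), where 7.58% of all probe sets were called higher. With psaA that made 7 of 69 chloroplast probe sets (10.1%) called higher under the block, and psbA was the 1 called lower, against 9.47% of all probe sets. Without p53 replicate 3 the genes called were psaA, rpl14 and rpl22, 3 of 69 (4.35%), all higher, against 7.90% of all probe sets, and none was lower, against 9.40%. In either direction 17.0% of all probe sets were called with the block and 17.3% without p53 replicate 3.

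A run of neighbouring ribosomal protein genes, rpl14, rpl16, rps3, rpl22 and rps19, followed a common pattern over the arrays. The run was picked out after its values were seen, and corresponds to part of a bacterial ribosomal protein operon. It leaves out rpl36, the nearest member before it (difference 0.27, adjusted p = 0.544), and rpoA before that (-0.05, adjusted p = 0.880). Also left out are rpl2 and rpl23, whose probe sets name both copies and are no members (-0.01 and 0.09, adjusted p = 0.958 and 0.769). Genes of the run had differences of 0.38 to 0.62, with a median of 0.50 and of 0.77 without p53 replicate 3. The median of the run was -0.24, 0.22 and -0.52 in WT and 0.40, 0.68 and -0.24 in p53, so p53 replicates 1 and 2 were above all WT arrays and p53 replicate 3 was among them.

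rpl14, a large-subunit protein gene, had the highest difference among the ribosomal genes. Its values were -0.21, 0.05 and -0.52 in WT and 0.56, 0.68 and -0.05 in p53, and p53 replicate 3 lay between WT replicates 1 and 2. The difference was 0.62 (standard error 0.22, adjusted p = 0.118), or 1.54-fold higher. The adjusted p was 0.0154 with the block, and 0.0200 without p53 replicate 3, where the difference was 0.84.

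rpl22 varied more, with -0.30, 0.27 and -0.55 in WT and 0.59, 0.93 and -0.27 in p53. Its difference was 0.61 (standard error 0.34, adjusted p = 0.293), with an adjusted p of 0.0407 with the block and 0.0448 without p53 replicate 3. rps19, for a small-subunit protein, had a difference of 0.50 (adjusted p = 0.331, and 0.0279 with the block) and values of -0.24, 0.24 and -0.57 in WT against 0.38, 0.77 and -0.24 in p53. In both genes p53 replicate 3 lay near the lower WT arrays. For rpl16 the difference was 0.38 (adjusted p = 0.380, and 0.0491 with the block), and for rps3 0.39 (0.380 and 0.0611).

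Ribosomal genes elsewhere on the genome were mixed. rps2 had -0.36, 0.05 and -0.50 in WT and -0.05, 0.48 and 0.17 in p53, a difference of 0.47 (adjusted p = 0.145, and 0.0388 with the block). Here p53 replicate 3 did not lie low, and the difference without it was 0.49. rps16 was the 1 chloroplast gene whose p53 arrays all lay above WT, with 0.08, 0.89 and 0.02 against -0.17, -0.02 and -0.16 (difference 0.44, adjusted p = 0.260). At the other end, rps15 and rpl32 had differences of -0.05 and -0.04 (adjusted p = 0.902 and 0.883).

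The genes of the plastid-encoded RNA polymerase, whose core has the subunit types of the bacterial enzyme, differed among themselves. rpoC1 had -0.32, 0.28 and -0.42 in WT and 0.18, 0.99 and -0.18 in p53, with the highest value of any member in p53 replicate 2. Its difference was 0.48 (standard error 0.32, adjusted p = 0.388), and its adjusted p was 0.0498 with the block. rpoB and rpoC2, which flank rpoC1 in the same cluster, had differences of -0.09 and 0.22 (adjusted p = 0.507 and 0.337), and rpoA had -0.05 (adjusted p = 0.880). The p53 arrays of rpoB all lay below WT, in a range of 0.03. Whether these genes differ from each other was not tested.

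Genes outside these complexes had a median of -0.11 over 5. They ran from ccsA, for cytochrome c assembly in the chloroplast, at -0.13 (adjusted p = 0.609) to matK, a maturase for introns, at 0.24 (adjusted p = 0.307). The matK values were -0.15, 0.08 and -0.10 in WT and 0.27, 0.38 and -0.08 in p53, and without p53 replicate 3 its difference was 0.38 (adjusted p = 0.0559).

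**Figure D3:**
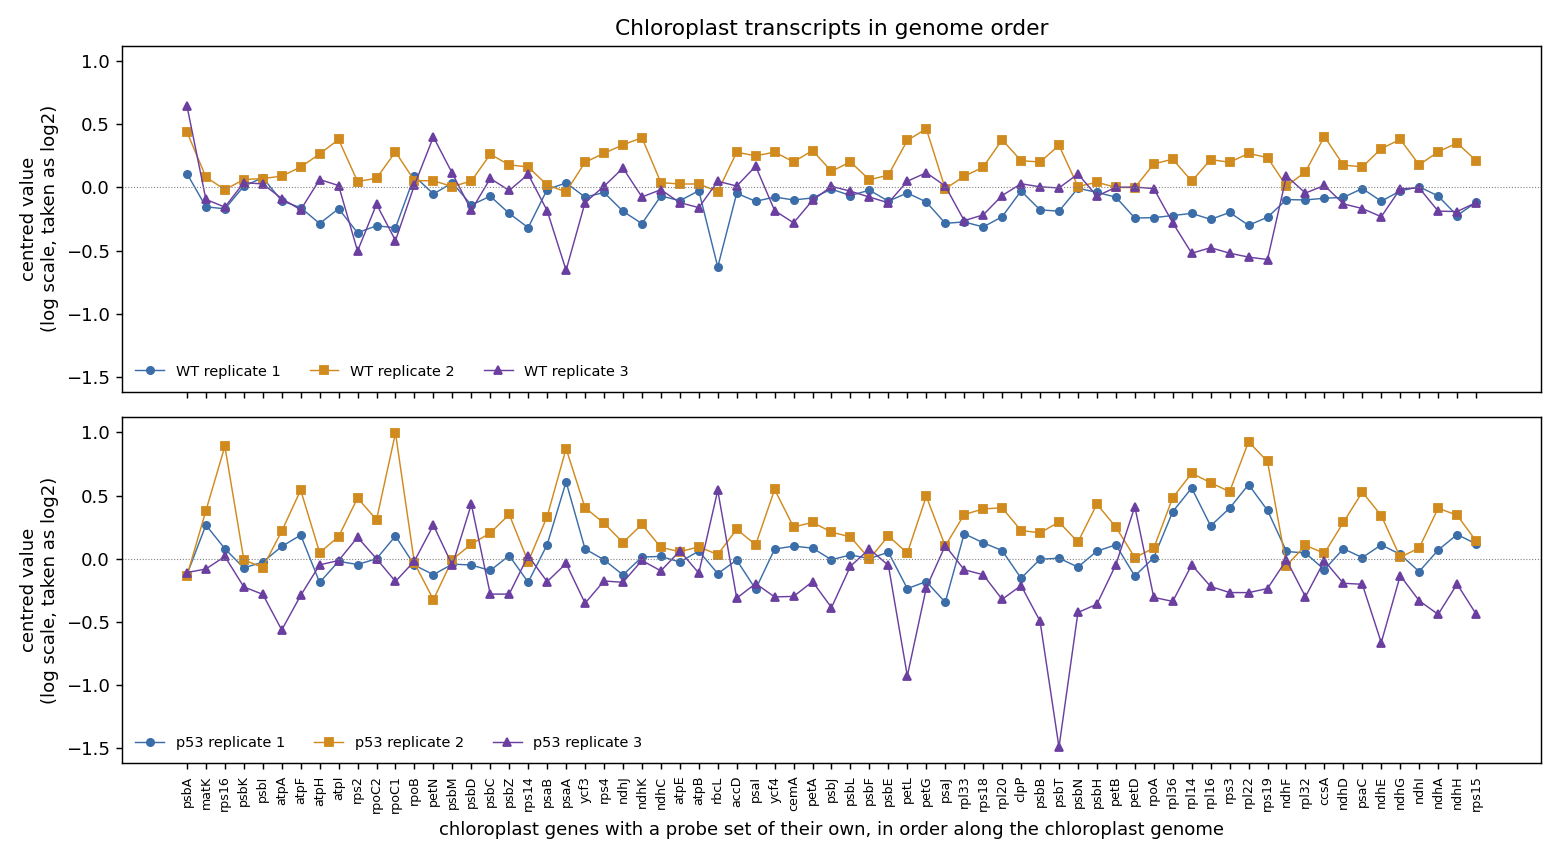
Centred values (log scale, taken as log2) of the 69 chloroplast genes in their order along the genome, with a line for each array, WT above and p53 below. The replicate 2 lines run highest in both genotypes, p53 replicate 3 runs low with psbT at -1.49, and the run from rpl14 to rps19 is high in p53 replicates 1 and 2 and low in WT replicate 3.

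Leaving out p53 replicate 3 changed the sign of the difference for 14 of 69 chloroplast and 3 of 23 mitochondrial probe sets. The number of chloroplast probe sets with a difference above 0 was 39 with that array and 51 without it, and the number of mitochondrial ones was 8 and 5. Without it the genotypes did not overlap for 22 chloroplast and 10 mitochondrial probe sets, against 47.4% of all probe sets. The complexes with the largest medians without this array were the large and small ribosomal subunits, at 0.52 and 0.44, followed by photosystem I and its assembly factors, both at 0.27.

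For mitochondrial probe sets the median size of the difference, without its sign, was 0.10, against 0.16 over all probe sets, and none passed with all arrays. Over the 15 probe sets of respiratory complex I, which takes electrons from NADH, the median difference was -0.05, with 12 below 0, and without p53 replicate 3 it was -0.14. nad4, a membrane subunit, had the lowest difference at -0.50 (standard error 0.20, adjusted p = 0.162). Its values were -0.05, 0.14 and 0.53 in WT and -0.58, 0.05 and -0.34 in p53, and p53 replicate 2 lay within the WT range. Without that array nad4 passed (difference -0.67, adjusted p = 0.0493), where 19.1% of all probe sets were called, 8.62% higher and 10.5% lower.

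nad1 is spliced together from separate transcripts, and its 7 probe sets differed by -0.22 to 0.08. The highest of these probe sets had an adjusted p of 0.721 and the lowest of 0.287. The remaining 5 had differences of 0.03, -0.01, -0.04, -0.08 and -0.10, with adjusted p from 0.535 to 0.964. Counted without nad1, the mitochondrial median was -0.05 over 16 probe sets.

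Cytochrome c oxidase was represented by cox1 and cox2, its core subunits. For cox1 the values were 0.08, 0.03 and 0.41 in WT and -0.38, -0.12 and -0.03 in p53, with every p53 array below every WT array. Its difference was -0.35 (standard error 0.14, adjusted p = 0.149), and -0.43 without p53 replicate 3. cox2 had -0.14, -0.12 and 0.23 in WT and -0.05, 0.05 and 0.78 in p53, with p53 replicate 3 far above the rest. The cox2 difference was 0.27 with that array (adjusted p = 0.514) and 0.01 without it.

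Of the 4 probe sets for cytochrome c maturation, the pathway that attaches heme to cytochrome c, ccmB and ccmFN2 had no overlap between the genotypes, in opposite directions. ccmB, part of a membrane transporter, had -0.26, -0.02 and -0.14 in WT and 0.23, 0.02 and 0.24 in p53 (difference 0.30, standard error 0.10, adjusted p = 0.107). ccmFN2, part of the heme lyase, had 0.02, 0.07 and 0.07 in WT and -0.23, -0.17 and -0.02 in p53 (difference -0.19, adjusted p = 0.209). Neither passed, and the other heme lyase genes, ccmFC and ccmFN1, had differences of -0.25 and 0.0038 (adjusted p = 0.246 and 0.989). mttB, for a protein transport subunit, and matR, a maturase, had 0.11 each (adjusted p = 0.513 and 0.699).

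**Figure D4:**
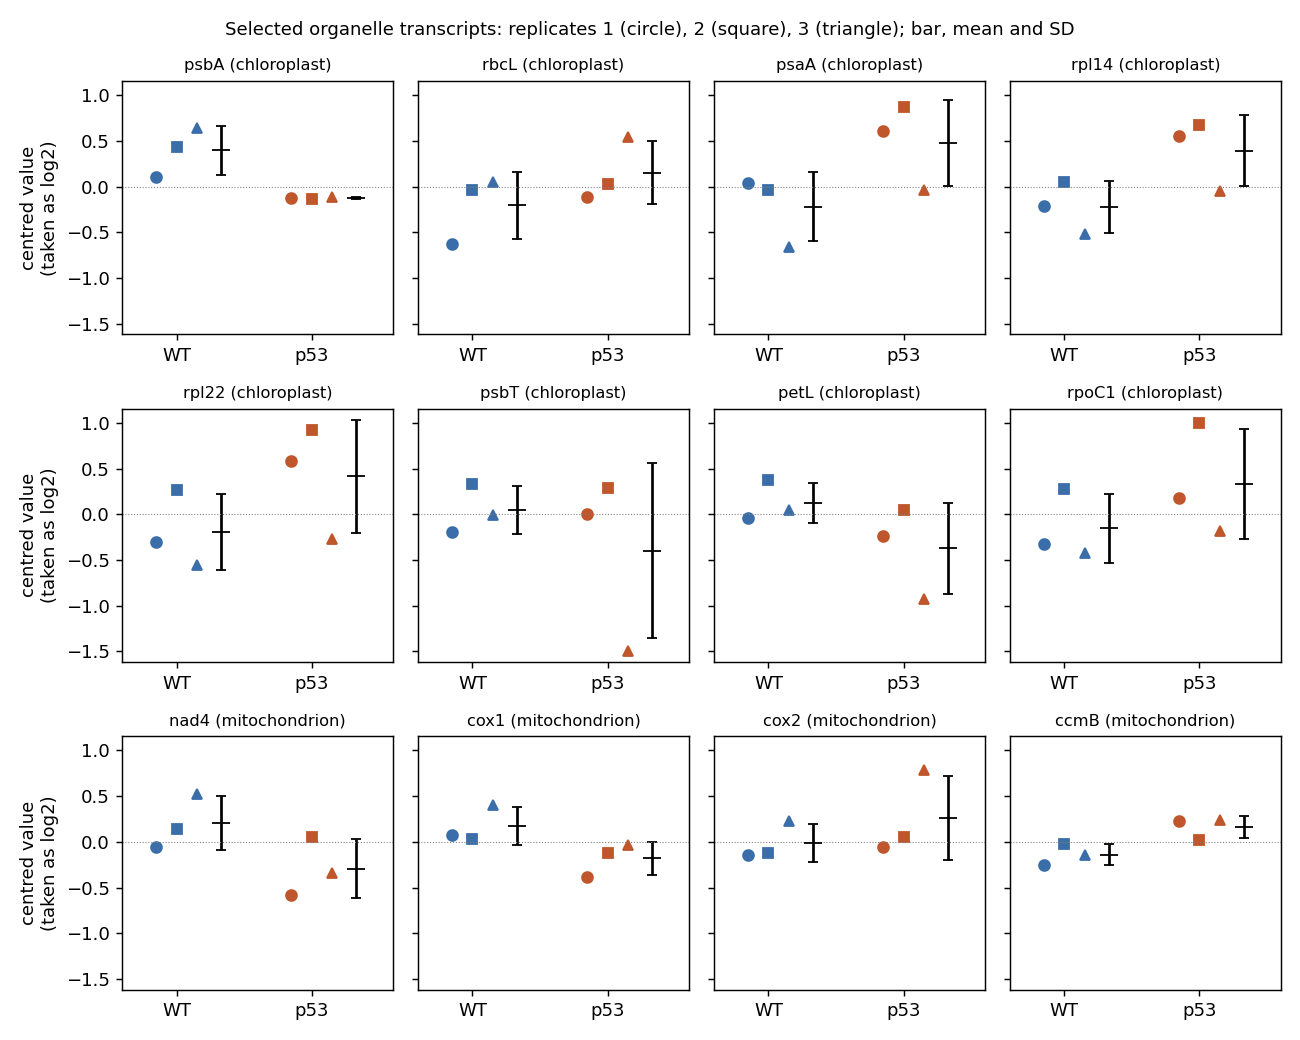
Centred values (taken as log2) of 8 chloroplast and 4 mitochondrial genes by genotype, with a symbol for each replicate and a bar for the mean and SD of 3 arrays. psbA and cox1 lie lower in every p53 array than in any WT array, ccmB higher, and psaA, rpl14 and rpl22 are high in p53 replicates 1 and 2 with p53 replicate 3 among the WT arrays.

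Nuclear genes were compared through 7 gene lists, of which few members could be matched to a probe set of their own. The lists cover photosynthesis, mitochondrial respiration, organelle transcription, organelle RNA turnover, chlorophyll synthesis, senescence with chlorophyll breakdown, and root markers. Of 135 listed genes, 15 were dropped because their symbol differed in the reference, and 101 were matched to no such probe set. The 20 probe sets of the other 19 were used. The annotation lists no gene for 8730 of the 22746 probe sets, so an unmatched gene is not shown to be absent from the array. None passed. The 9 photosynthesis probe sets had a median difference of 0.08, with 6 above 0, and the 8 for mitochondrial respiration 0.14, with 6 above 0, beside -0.01 for all probe sets. The lists for organelle transcription, organelle RNA turnover and senescence had no member left to use, and the root marker list had 1, EXP7, at -0.02. RPOTMP of the transcription list and MTPNPASE of the RNA turnover list have a probe set of their own. Both were among the genes dropped for their symbol, and their values were not used.

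NDHL and NDHN, nuclear subunits of the chloroplast NADH dehydrogenase-like complex, had the lowest differences of the photosynthesis list. The NDHN values were -0.04, 0.23 and 0.04 in WT and -0.06, 0.51 and -1.14 in p53, and NDHL had -0.02, 0.52 and 0.02 in WT and -0.23, 0.27 and -0.80 in p53. Both followed the pattern of the chloroplast genes, high in replicate 2 and lowest in p53 replicate 3. This was not particular to them. The medians of the photosynthesis list were -0.05, 0.04 and -0.09 in WT and 0.04, 0.13 and -0.06 in p53. Those of the chlorophyll synthesis list were -0.21, 0.08 and -0.35 in WT and 0.18, 0.36 and -0.10 in p53. Their differences were -0.31 and -0.43 (adjusted p = 0.668 and 0.381). ATPC1, of the ATP synthase, and LHCB4.2 and PSBY, of photosystem II, had 0.14, 0.14 and 0.15 (adjusted p from 0.366 to 0.443).

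Among the respiration genes, CYTC-2, for cytochrome c, had -0.01, 0.01 and 0.17 in WT and -0.59, -0.54 and 0.05 in p53. p53 replicate 3 lay among the WT arrays, and without it CYTC-2 passed, lower in p53 (difference -0.62, adjusted p = 0.00812), while with all arrays it did not (-0.42, adjusted p = 0.178). Without that array CYTC-2 was the 1 call among the 8 respiration probe sets, and the other lists had none. Of all probe sets 17.3% were then called, 7.90% higher and 9.40% lower. SDH1-1, of succinate dehydrogenase, had a difference of 0.29 (adjusted p = 0.169). SDH2-1, of the same enzyme, had 0.25 and -0.14 from its separate probe sets (adjusted p = 0.158 and 0.352), which disagree in sign. FRO1, of complex I, had 0.10 (adjusted p = 0.448). PORB and CHLM, for chlorophyll synthesis, had 0.29 and 0.32 (adjusted p = 0.305 and 0.276).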

How the data were processed

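Total RNA of WT and p53-transgenic seedlings was labelled by linear amplification, which starts at poly(A) tails, and hybridized to the ATH1 array. Whether such labelling samples the RNA of the organelle genomes in proportion to its amount was not tested. The labels name TRIzol and the methods an RNeasy kit for the extraction. Log2 is the assumed unit of the deposited values, which the authors summarized with PLIER, per the labels, and which are centred on the median of each probe set. GeneSpring is named for the statistics. For the background correction, the normalization and the log base the sources used here name nothing. Centred values hold no levels, so no filter on dim probe sets was possible, and the number of arrays limits the precision.

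Of 22810 rows, 64 controls were left out, and of the other 22746, 13513 name 1 gene, 503 several and 8730 none. Names come from the platform annotation, matched to TAIR10.1 by gene ID for the 69 chloroplast members and by symbol or synonym for the 23 mitochondrial ones, whose IDs were not matched there. The annotated symbols ccb382, ccb203, ccb206, ccb452 and orfX were thereby updated to ccmFN1, ccmFN2, ccmB, ccmFC and mttB. Among the 23 mitochondrial members, 5 carry the suffix s_at, which the array gives to probe sets matching several transcripts. They are those of nad6, ccmFC, mttB, matR and 1 of nad5. Whether mitochondrial members also take up signal from copies of mitochondrial DNA in the nucleus was not tested.

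Differences (p53 minus WT) were tested on all probe sets with lmFit and eBayes of limma 3.58.1 (R 4.3.3), without covariates, adjusted by Benjamini-Hochberg over 22746 probe sets. For 3 against 3 arrays the smallest p of an exact permutation test is 0.1, so it was not used. The steps were tested on simulated data. The labels number the replicates of both genotypes alike, and the deviations of same-numbered arrays from their group means correlated over all probe sets with r = 0.12, 0.27 and 0.34, each over the limit of 0.1, so arrays of 1 number were treated as pairs in an added fit with a replicate block. Alternatives were quantile normalization, centring of each array, robust eBayes, array weights, the methods' t-test, probe sets naming 1 gene only, other member rules and leaving out each array.

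The members, the gene lists and the tests were chosen with earlier results of these data known. Named members are psbA and rbcL, the highest and lowest of each complex, all of a complex with 4 or fewer, members past the threshold, and up to 4 members of each nuclear list with the smallest p. Others are named after their values were seen: psbI, psbK, psbM, psbT, psaB, rps14, rps2, rps3, rps16, rpl16, rpl22, rpl36, the nuclear NDHN, and rps12, ycf1, atp1 and atp9 among the probe sets naming several genes.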

Additional observations from a re-analysis of the deposited data

How the results depend on the processing

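The number of probe sets called over the array was 3500. It was 1411 with the methods' t-test, 1933 with probe sets naming 1 gene only, and 1621 to 4346 with an array left out. The 1 chloroplast call (psbA) became 0 with each array centred and 0 with the methods' t-test, 8 with the replicate block, 2 with probe sets naming several genes added, and 0 to 3 with an array left out. The mitochondrial count of 0 (3 at an unadjusted p under 0.05, 0 with the methods' t-test) was 0 to 1 with an array left out. The chloroplast median difference ran from -0.08 to 0.13 and the mitochondrial one from -0.10 to 0.01 with an array left out.

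Over 33 named probe sets, 391 of 429 values under the alternatives kept their direction and side of the threshold. Another 8 lost the threshold, all of psbA, 8 newly passed it and 22 changed sign, 15 of these with an array left out, and 24 probe sets never changed sign. Under quantile normalization and array weights respectively, rpoA was 0.0105 and 0.0210, rpl32 0.0130 and 0.0221, and rps15 0.0178 and 0.0568, and ccmFN1 was -0.0665 with array weights. With an array left out, atpH ran from -0.226 to 0.0497, rpoA from -0.159 to 0.0680, rpl32 from -0.120 to 0.0831, ccsA from -0.228 to 0.0155, ycf3 from -0.14 to 0.24, ycf4 from -0.12 to 0.31, rps15 from -0.15 to 0.14, ccmFN1 from -0.0502 to 0.108 and matR from -0.0255 to 0.209. The cause was not tested for any of these.
Apart from the 7 chloroplast members called higher, the replicate block changed no other member's call. Signal over background could not be judged from centred values.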

Other observations

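A further 20 probe sets name several genes with at least 1 organelle gene among them, and were not members. The chloroplast ones include both copies of genes in the inverted repeat. rps12, a small-subunit ribosomal protein whose exons are joined from separate transcripts, has a pair of probe sets. One of them had 0.07, 0.24 and 0.26 in WT and -0.07, -0.20 and -0.18 in p53, without overlap, and was lower in p53 (difference -0.34, standard error 0.09, limma adjusted p = 0.0483), where 8.84% of all probe sets were called lower. Its adjusted p was 0.0843 with the replicate block, 0.0773 without p53 replicate 3 and 0.0839 with the methods' t-test, none of which passed, and ran up to 0.169 over the alternatives. The other had a difference of -0.11 (adjusted p = 0.583).

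ycf1, for a large protein of the chloroplast envelope, had -0.80, 0.05 and -0.87 in WT and 0.26, 0.85 and -0.05 in p53. Its difference was 0.89 (standard error 0.31, adjusted p = 0.107), larger than that of any member. It passed with the replicate block (adjusted p = 0.00610) and not without p53 replicate 3 (difference 1.09, adjusted p = 0.0614). p53 replicate 3 was again the lowest p53 array and lay within the WT range. The remaining probe sets of the inverted repeat (rpl2, rpl23, ycf2, ndhB and rps7) had differences from -0.14 to 0.13.

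The mitochondrial probe sets of this kind are mostly shared with loci on nuclear chromosome 2, where a copy of mitochondrial DNA lies, so the signal cannot be assigned to one genome. atp1, for a subunit of the mitochondrial ATP synthase, had 0.08, 0.14 and 0.27 in WT and -0.27, -0.16 and -0.08 in p53. The genotypes did not overlap, and the difference was -0.33 (standard error 0.09, adjusted p = 0.0567). It passed without p53 replicate 3 (difference -0.38, adjusted p = 0.0460) and had an adjusted p of 0.0501 with the block. atp9, of the same complex, had a difference of -0.34 (adjusted p = 0.402) with p53 replicate 3 at 0.27 and the other p53 arrays at -0.68 and -0.42. Without p53 replicate 3 it passed, lower in p53 (difference -0.61, adjusted p = 0.0210), where 9.40% of all probe sets were called lower.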
